A study of Homo sapiens with 12 samples.

Results

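The enzymes and transporters that carry glucose through glycolysis and the pentose phosphate pathway were followed in RCC4 cells after silencing of WWTR1. The set was given as a list of 33 genes, from the glucose transporters to the isomerases of the non-oxidative pentose phosphate branch. No cut-off on measured values was used to pick it, but earlier results of these data were known when it was chosen. Of these, 31 were matched to a probe set through the annotation used, among 11963 measured genes; the lactate transporters SLC16A1 and SLC16A3 were not matched and were not analysed here. By role the 31 comprised 2 glucose transporters, 19 genes of glycolysis and its regulation, 4 genes that act on pyruvate and 6 genes of the pentose phosphate pathway.

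RCC4 is a single established line of human clear cell renal carcinoma without functional VHL, the protein that marks hypoxia-inducible factors for breakdown. All groups share this background, and the activity of these factors was not measured. Control cells carried a non-targeting siRNA (siNT), and silenced cells one directed at WWTR1 (siTAZ), whose product is the transcriptional coactivator TAZ. Cells of both kinds, after 2 days of siRNA, were exposed for 7 hours to DMSO as vehicle or to erastin at 1 µM. By blocking the import of cystine, erastin can set off ferroptosis, a death by lipid peroxidation. The 4 groups were therefore siNT with vehicle, siNT with erastin, siTAZ with vehicle and siTAZ with erastin, with 3 arrays each that the submitters call biological triplicates; a single siRNA label stands for each gene, and whether more than 1 sequence was used is not given in the sources used here.

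Glycolysis splits glucose into pyruvate and yields ATP, and its committed step is set by phosphofructokinase, which the PFKFB enzymes adjust through fructose 2,6-bisphosphate. The pentose phosphate pathway branches off at glucose 6-phosphate: its oxidative part makes NADPH, which keeps glutathione reduced, and its non-oxidative part interconverts pentoses with glycolytic sugars. Clear cell renal carcinoma is known for high glucose uptake and lactate production, since many glycolytic genes are targets of hypoxia-inducible factors.

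The deposited log2 signals ran from 2.02 to 14.4 with array medians of 6.48 to 6.54, and the number of arrays limits the precision. WWTR1 itself lay between 12.19 and 12.35 on siNT arrays and between 9.09 and 9.46 on siTAZ arrays, which left 12.2% of the control signal. The renal markers PAX8 and CDH6 had mean log2 signals of 10.61 and 12.22, whereas LHX1 was dim at 5.74; of 7 measured renal markers, 3 rose and 1 fell with siTAZ in vehicle and 3 rose and 2 fell under erastin. Of 29 markers of leukocytes, endothelium, erythroid cells and fibroblasts, 26 were measured and 0 passed the limma test in any of the 5 comparisons below, with mean signals of 2.31 to 7.43. The difference between 3′ and 5′ actin probe sets, a sign of RNA quality, was 2.68 ± 0.28 in siNT vehicle, 2.26 ± 0.69 in siNT erastin, 2.65 ± 0.04 in siTAZ vehicle and 3.25 ± 0.33 in siTAZ erastin (SD, n = 3 each). Its siNT and siTAZ arrays did not overlap under erastin, where siNT replicate 3 was lowest at 1.49. The same difference for GAPDH lay between 0.07 and 0.28 on all arrays. Under erastin its siNT arrays (0.22, 0.15 and 0.07) overlapped the siTAZ arrays (0.17, 0.27 and 0.16).

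Silencing of WWTR1 lowered the glucose transporters, both hexokinases and several later enzymes of glycolysis, and moved the pentose isomerase and epimerase in opposite directions. In vehicle, 10 of the 31 genes fell and 5 rose; under erastin 12 fell and 4 rose. Over all measured genes 28.6% were called in vehicle (13.9% fell and 14.7% rose) and 28.2% under erastin (12.6% fell and 15.6% rose), so the 32.3% and 38.7% of the set that fell stand beside 13.9% and 12.6%, and the 16.1% and 12.9% that rose beside 14.7% and 15.6%. The set is bright: 18 of its genes lie among the brightest 25% of all genes, where 45.5% were called in vehicle (23% fell) and 44.3% under erastin (22.8% fell). Of those 18 genes, 2 rose and 7 fell in vehicle, and 1 rose and 9 fell under erastin. With the actin 3′ minus 5′ difference as a covariate, 12 genes were called under erastin (3 rose and 9 fell): PFKL (0.18), ALDOA (−0.14), ENO1 (−0.12), PGLS (0.20) and TKT (−0.18) no longer passed, PDK3 now did (0.72, adjusted p = 0.00939), and RPE and ENO2 reached 0.66 and 0.30. In RNA from whole cultures, a change in the share of cells and a change in RNA per cell cannot be told apart. The median log2 change of the set was −0.02 in vehicle and −0.10 under erastin, beside −0.01 and 0.01 over all genes. The words rose and fell are used for genes with an adjusted p under 0.05 in limma (Benjamini-Hochberg, over all genes), fold changes are differences of log2 signal between siTAZ and siNT ± the standard error of the fit (n = 3 arrays per group), and a gene's level is that of its brightest probe set.

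**Figure D1:**
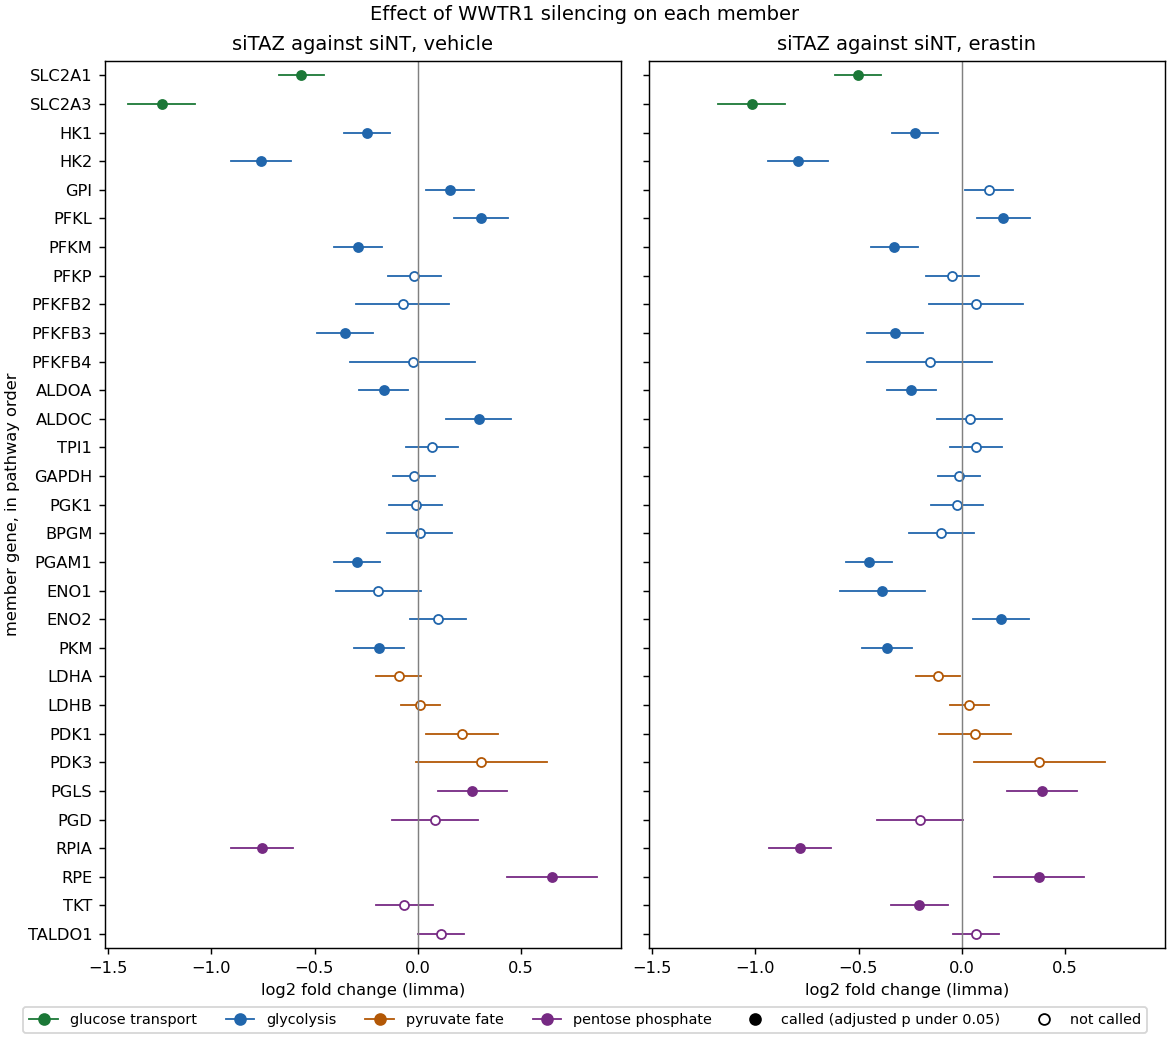
Log2 fold change of siTAZ against siNT for each of the 31 genes, in vehicle (left) and under erastin (right), in pathway order from glucose transport to the pentose phosphate pathway. Lines are 95% confidence intervals of the limma fit, filled points passed the test and open points did not; SLC2A3, HK2, RPIA and SLC2A1 lie farthest to the left in both panels and RPE farthest to the right in vehicle.

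Both glucose transporters fell, and the fall of SLC2A3 was the largest in the set in both media. SLC2A3 encodes GLUT3, a high-affinity glucose transporter. Its log2 signals were 8.64, 8.45 and 8.40 in siNT vehicle, 8.54, 8.53 and 8.64 in siNT erastin, 7.17, 7.37 and 7.23 in siTAZ vehicle, and 7.53, 7.52 and 7.61 in siTAZ erastin. Every siTAZ array lay below every siNT array, and within siTAZ the erastin arrays lay above the vehicle arrays. SLC2A3 fell by 1.24 ± 0.07 in vehicle (2.36-fold, limma adjusted p = 2.24e-07) and by 1.02 ± 0.07 under erastin (2.02-fold, 1.12e-06). Its dimmer probe sets gave −0.70 and −0.06 in vehicle and −0.68 and −0.29 under erastin; the values of −0.06 and −0.29 did not pass the test (adjusted p = 0.742 and 0.0637).

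SLC2A1 encodes GLUT1, the main basal glucose transporter. It had signals of 11.32, 11.34 and 11.36 in siNT vehicle, 11.27, 11.29 and 11.38 in siNT erastin, 10.78, 10.82 and 10.73 in siTAZ vehicle, and 10.80, 10.85 and 10.78 in siTAZ erastin. The siNT and siTAZ arrays did not overlap in either medium. SLC2A1 fell by 0.56 ± 0.05 in vehicle (1.48-fold, limma adjusted p = 5.07e-06) and by 0.50 ± 0.05 under erastin (1.42-fold, 1.3e-05), and its second probe set gave −0.68 and −0.50.

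Hexokinases trap glucose in the cell as glucose 6-phosphate. HK2, the inducible isozyme, had log2 signals of 9.09, 9.17 and 9.08 in siNT vehicle, 9.30, 9.20 and 9.18 in siNT erastin, 8.37, 8.36 and 8.34 in siTAZ vehicle, and 8.39, 8.32 and 8.58 in siTAZ erastin. All 6 siTAZ arrays were below all 6 siNT arrays. HK2 fell by 0.76 ± 0.07 in vehicle (1.69-fold, limma adjusted p = 4.85e-06) and by 0.79 ± 0.07 under erastin (1.73-fold, 3.44e-06), with −0.94 and −0.68 on its second probe set. For HK1, the widely expressed isozyme, the signals were 10.70, 10.73 and 10.69 in siNT vehicle, 10.62, 10.67 and 10.62 in siNT erastin, 10.40, 10.55 and 10.43 in siTAZ vehicle, and 10.40, 10.43 and 10.40 in siTAZ erastin. Here too the siRNA groups did not overlap, but the distance was smaller. HK1 fell by 0.25 ± 0.05 and 0.22 ± 0.05 (limma adjusted p = 0.00275 and 0.00536). GPI, which turns glucose 6-phosphate into fructose 6-phosphate, went the other way, with 0.16 ± 0.05 in vehicle, which passed the test (adjusted p = 0.0421), and 0.13 ± 0.05 under erastin, which did not (0.0851). GPI no longer passed when siNT vehicle replicate 2 (0.18) or 3 (0.11) was left out, or siTAZ vehicle replicate 1 (0.16), 2 (0.15) or 3 (0.16).

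**Figure D2:**
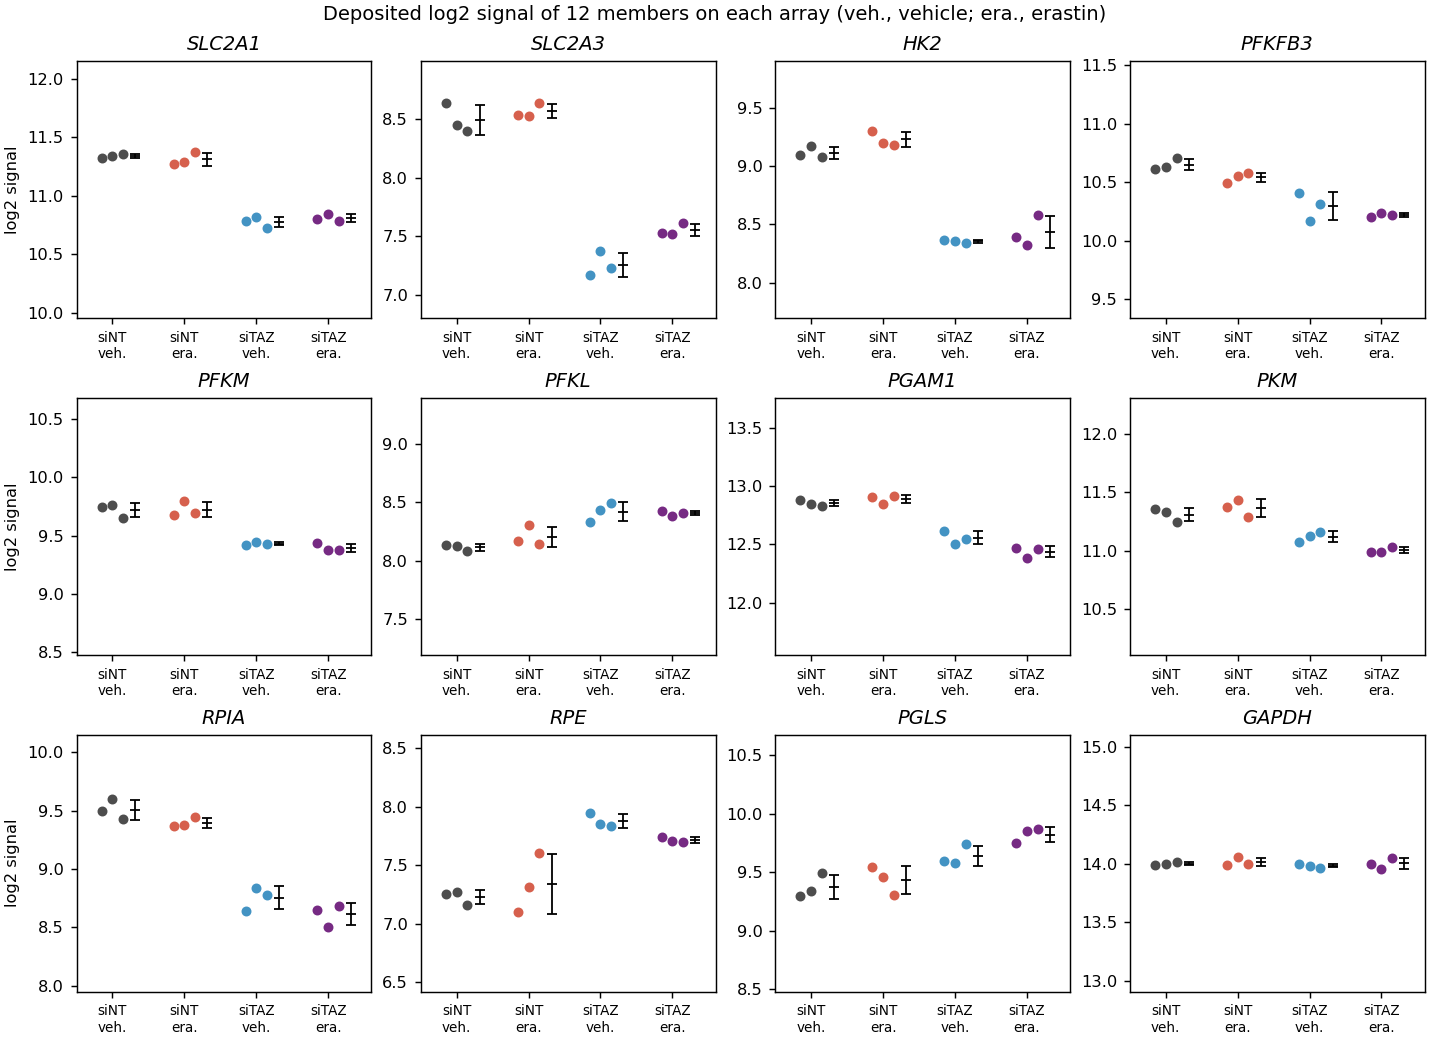
Deposited log2 signal of 12 of the genes on each of the 12 arrays, by siRNA and medium; coloured points are single arrays and black bars the mean ± SD of 3 arrays. All panels span the same number of log2 units, so heights can be compared as changes: SLC2A3, HK2 and RPIA sit lower on siTAZ arrays, PFKL, PGLS and RPE higher, and GAPDH stays between 13.96 and 14.05.

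The phosphofructokinase genes split. PFKM, the muscle-type subunit, had signals of 9.74, 9.76 and 9.65 in siNT vehicle, 9.68, 9.79 and 9.69 in siNT erastin, 9.42, 9.44 and 9.43 in siTAZ vehicle, and 9.43, 9.37 and 9.38 in siTAZ erastin. PFKL, the liver-type subunit, had 8.13, 8.13 and 8.08, then 8.17, 8.30 and 8.14, then 8.33, 8.43 and 8.50, then 8.42, 8.39 and 8.41 in the same group order. The siTAZ arrays were the lower ones for PFKM and the higher ones for PFKL, without overlap in either medium. PFKM fell by 0.29 ± 0.05 and 0.33 ± 0.05 (limma adjusted p = 0.00117 and 0.00053 in vehicle and erastin), and PFKL rose by 0.31 ± 0.06 and 0.20 ± 0.06 (0.00181 and 0.023), with 0.29 and 0.20 on the second PFKL probe set. Under erastin the PFKL call was lost without siNT replicate 1 (0.18) or 3 (0.17) and without siTAZ replicate 1 (0.19) or 3 (0.20). PFKP, the platelet-type subunit, did not pass the test, at −0.02 ± 0.06 and −0.05 ± 0.06.

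Of the PFKFB genes, whose enzymes make and break fructose 2,6-bisphosphate, PFKFB3 changed. This gene, whose enzyme mostly acts as the kinase, had signals of 10.62, 10.63 and 10.71 in siNT vehicle, 10.50, 10.55 and 10.58 in siNT erastin, 10.41, 10.17 and 10.32 in siTAZ vehicle, and 10.20, 10.24 and 10.22 in siTAZ erastin. The siTAZ arrays lay below the siNT arrays of the same medium throughout. PFKFB3 fell by 0.35 ± 0.06 in vehicle and by 0.32 ± 0.06 under erastin (limma adjusted p = 0.000941 and 0.00176). PFKFB2 gave −0.07 ± 0.10 and 0.07 ± 0.10, and PFKFB4, dim at a mean of 5.49, gave −0.02 ± 0.14 and −0.15 ± 0.14; neither passed the test.

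Aldolase splits fructose 1,6-bisphosphate into triose phosphates. ALDOA fell by 0.16 ± 0.05 in vehicle and by 0.24 ± 0.05 under erastin (limma adjusted p = 0.04 and 0.00485), and its second probe set gave −0.14 and −0.26. The ALDOA call in vehicle was lost without siNT replicate 1 (−0.13) or 2 (−0.17) and without siTAZ replicate 1 (−0.16), 2 (−0.16) or 3 (−0.17). ALDOC, the isozyme known from brain, rose by 0.29 ± 0.07 in vehicle (0.00811), where its siTAZ arrays at 7.59, 7.64 and 7.58 lay above the siNT arrays at 7.30, 7.41 and 7.22. Under erastin the ALDOC groups overlapped, and the difference of 0.04 ± 0.07 did not pass the test (0.767). The difference between these effects, −0.26 ± 0.10, did not pass either (0.77).

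In the ATP-yielding stretch of glycolysis the early steps did not pass the test on their brightest probe sets, and PGAM1 and PKM fell. TPI1, the triose phosphate isomerase, gave 0.07 ± 0.06 in both media. GAPDH, which oxidises glyceraldehyde 3-phosphate, had signals of 13.99, 14.00 and 14.02 in siNT vehicle, 13.99, 14.05 and 14.00 in siNT erastin, 14.00, 13.99 and 13.97 in siTAZ vehicle, and 14.00, 13.96 and 14.05 in siTAZ erastin. These arrays overlapped in every pair of groups, and the 95% intervals of the siTAZ effect ran from −0.12 to 0.08 in vehicle and from −0.11 to 0.09 under erastin. PGK1, which makes the first ATP of this stretch, gave −0.01 ± 0.06 and −0.02 ± 0.06 on its brightest probe set. Its other probe sets gave −0.03, −0.00 and −0.18 in vehicle and −0.34, −0.23 and −0.12 under erastin, of which −0.34 passed the test (limma adjusted p = 0.0402). BPGM, whose enzyme makes 2,3-bisphosphoglycerate, gave 0.01 ± 0.07 and −0.10 ± 0.07.

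PGAM1, the phosphoglycerate mutase of most tissues, was lower on all siTAZ arrays. Its signals were 12.88, 12.84 and 12.83 in siNT vehicle, 12.90, 12.85 and 12.92 in siNT erastin, 12.62, 12.51 and 12.55 in siTAZ vehicle, and 12.47, 12.38 and 12.46 in siTAZ erastin. PGAM1 fell by 0.29 ± 0.05 in vehicle (limma adjusted p = 0.000884) and by 0.45 ± 0.05 under erastin (1.37-fold, 3.78e-05). PKM encodes the pyruvate kinase that yields the last ATP. Its signals were 11.35, 11.33 and 11.24 in siNT vehicle, 11.38, 11.43 and 11.29 in siNT erastin, 11.07, 11.13 and 11.16 in siTAZ vehicle, and 10.99, 10.99 and 11.04 in siTAZ erastin, again without overlap between the siRNAs. PKM fell by 0.19 ± 0.06 and 0.36 ± 0.06 (0.0227 and 0.000364); its dimmer probe set gave −0.19 and −0.16, which did not pass (0.101 and 0.159). The vehicle call of PKM was lost without siNT replicate 1 (−0.17) or 2 (−0.18) and without siTAZ replicate 1 (−0.16) or 2 (−0.19).

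Enolases make phosphoenolpyruvate. ENO1, the ubiquitous form, had signals of 12.36, 12.30 and 12.07 in siNT vehicle, 12.24, 12.18 and 12.49 in siNT erastin, 12.08, 12.04 and 12.03 in siTAZ vehicle, and 12.03, 11.82 and 11.91 in siTAZ erastin. The vehicle groups overlapped and the erastin groups did not. ENO1 gave −0.19 ± 0.09 in vehicle, which did not pass the limma test (adjusted p = 0.165), and fell by 0.39 ± 0.09 under erastin (0.00843). Its other probe sets gave −0.08 and −0.25 in vehicle and −0.62 and −0.30 under erastin; all but −0.08 passed the test (adjusted p = 0.0139 for −0.25, 0.0179 for −0.62 and 0.00515 for −0.30). With the actin 3′ minus 5′ difference as a covariate the ENO1 value under erastin was −0.12 and did not pass (0.344), while that in vehicle was −0.20 and did (0.0254). ENO2, the neuronal form, gave 0.10 ± 0.06 in vehicle (0.284) and rose by 0.19 ± 0.06 under erastin (0.0364), a call lost without siNT erastin replicate 1 (0.16) or 2 (0.19) and without siTAZ erastin replicate 1 (0.19) or 3 (0.14).

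None of the genes that act on pyruvate passed the test within a medium. LDHA, which turns pyruvate into lactate, gave −0.09 ± 0.05 in vehicle and −0.12 ± 0.05 under erastin (limma adjusted p = 0.216 and 0.112), although its siTAZ arrays lay below the siNT arrays in both media. LDHB gave 0.01 ± 0.04 and 0.04 ± 0.04. PDK1 and PDK3, kinases that switch off pyruvate dehydrogenase, were dim, with mean signals of 5.73 and 5.59. PDK1 gave 0.21 ± 0.08 and 0.06 ± 0.08, and PDK3 gave 0.31 ± 0.15 and 0.37 ± 0.15 (0.151 and 0.078). The dimmer PDK3 probe sets rose by 0.51 and 0.62 in vehicle and by 0.50 and 0.79 under erastin. In the siTAZ effect averaged over both media, where 37.9% of all genes (19.9% rose and 17.9% fell) and 20 of the 31 genes were called (7 rose and 13 fell), LDHA fell by 0.10 ± 0.04 (0.0354) and PDK3 rose by 0.34 ± 0.10 (0.0194).

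The largest opposite changes were in the non-oxidative pentose phosphate branch, at the point where ribulose 5-phosphate is turned either into ribose 5-phosphate by RPIA, the precursor of nucleotides, or into xylulose 5-phosphate by RPE. RPIA had signals of 9.49, 9.60 and 9.43 in siNT vehicle, 9.37, 9.37 and 9.44 in siNT erastin, 8.64, 8.83 and 8.78 in siTAZ vehicle, and 8.65, 8.50 and 8.68 in siTAZ erastin. RPE had 7.25, 7.27 and 7.16, then 7.10, 7.31 and 7.61, then 7.95, 7.85 and 7.83, then 7.75, 7.70 and 7.70 in the same group order. Every siTAZ array was below every siNT array for RPIA and above every siNT array for RPE. RPIA fell by 0.75 ± 0.07 in vehicle (1.69-fold, limma adjusted p = 6.41e-06) and by 0.78 ± 0.07 under erastin (1.72-fold, 4.69e-06). RPE rose by 0.65 ± 0.10 in vehicle (1.57-fold, 0.000343) and by 0.37 ± 0.10 under erastin (1.3-fold, 0.0139); its siNT erastin arrays were the most spread.

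In the oxidative branch PGLS, the lactonase that follows the first dehydrogenase, was higher after silencing. Its signals were 9.29, 9.34 and 9.49 in siNT vehicle, 9.54, 9.46 and 9.30 in siNT erastin, 9.59, 9.58 and 9.74 in siTAZ vehicle, and 9.75, 9.85 and 9.86 in siTAZ erastin. The siRNA groups did not overlap in either medium. PGLS rose by 0.26 ± 0.08 and 0.39 ± 0.08 (limma adjusted p = 0.0214 and 0.00222), and its second probe set by 0.30 and 0.33. The vehicle call of PGLS was lost without siNT replicate 1 (0.22) or 2 (0.25) and without siTAZ replicate 3 (0.21). PGD, the dehydrogenase that yields the second NADPH, gave 0.08 ± 0.10 in vehicle and −0.20 ± 0.10 under erastin, and neither value passed (0.603 and 0.151). Of the enzymes that return carbon to glycolysis, the transketolase TKT gave −0.06 ± 0.06 in vehicle and fell by 0.20 ± 0.06 under erastin (0.0292), with −0.04 and −0.36 on its second probe set. The TKT call was lost without siNT erastin replicate 1 (−0.19) or 2 (−0.20) and without siTAZ erastin replicate 2 (−0.15). TALDO1, the transaldolase, gave 0.11 ± 0.05 and 0.07 ± 0.05 and did not pass.

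Between the siRNAs the arrays of a medium did not overlap for 20 of the 31 genes in vehicle (9 higher and 11 lower in siTAZ) and for 20 under erastin (7 higher and 13 lower), beside 43.8% and 38.8% of all genes. Calls with a change of at least 0.5 were made for 5 of the genes in vehicle and 4 under erastin, beside 7.42% and 7.34% of all genes. A set of 10 genes fell in both media, namely SLC2A1, SLC2A3, HK1, HK2, PFKM, PFKFB3, ALDOA, PGAM1, PKM and RPIA, and 3 rose in both, namely PFKL, PGLS and RPE. Each of the 3 lost a call in some alternative runs. Under erastin PFKL lost it in 7 runs, RPE in 1 and PGLS in 1, and in vehicle PGLS lost it in 3. Of the 10, ALDOA lost its call in 7 runs in vehicle and 1 under erastin, and PKM in 4 in vehicle. These counts leave out readings of a gene's dimmer probe sets. The values in vehicle and under erastin, which share no array, had the same sign for 28 of the 31 genes, with a Pearson r of 0.945 and a Spearman rho of 0.920 across genes; over all genes the Pearson r was 0.877. Genes are not independent replicates, and these coefficients are descriptions. The shares of all genes called in both media, or with the same sign in both, were not counted. Whether the counts of the set stand out therefore cannot be told. The exceptions in sign were PFKFB2, BPGM and PGD, none of which passed the test in either medium.

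**Figure D3:**
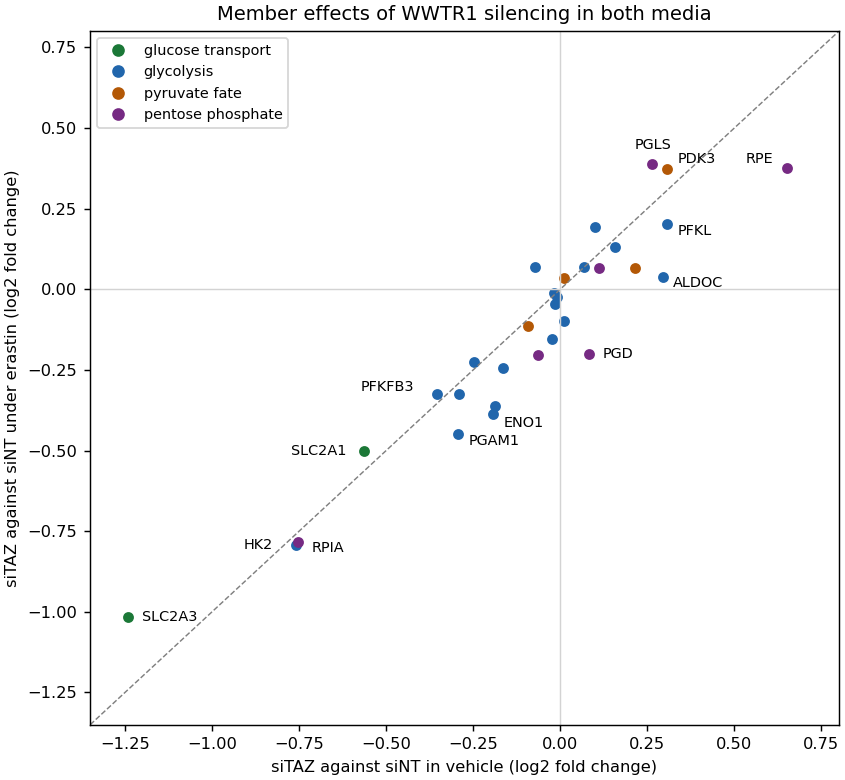
Log2 fold change of siTAZ against siNT under erastin (vertical) against that in vehicle (horizontal), 1 point per gene, coloured by role; the dashed line marks equal effects. Most points lie near the line; RPE and ALDOC lie below it, with smaller values under erastin than in vehicle, and SLC2A3 lies above it.

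Genes that serve the same step were set side by side by the difference between their siTAZ effects, averaged over both media. The pairs named here were chosen after their values were seen, so no test is given. The effect of SLC2A3 lay −0.60 from that of SLC2A1, the effect of HK2 −0.54 from that of HK1, and the effect of PFKM −0.56 from that of PFKL. Smaller distances were those of ENO1 from ENO2 (−0.43), ALDOA from ALDOC (−0.37), PFKFB3 from PFKFB2 (−0.34) and LDHA from LDHB (−0.13). PFKM lay −0.28 and PFKL 0.28 from PFKP, PFKFB3 −0.25 from PFKFB4, and PDK1 −0.20 from PDK3. For these last pairs, PFKFB3 with PFKFB4 and PDK1 with PDK3, the signal difference itself varied among siNT arrays of a medium by an SD of 0.26 and 0.30. RPIA and RPE, which catalyse different reactions of the same substrate, lay −1.28 apart. These are differences of changes; the levels of different probe sets were not compared.

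Several of the genes have more than 1 probe set, which gives a second reading of the same transcripts on the same arrays. The 31 genes have 53 probe sets, and 15 genes have more than 1. For called genes, the further probe sets had the sign of the brightest in 8 of 8 cases in vehicle, of which 5 also passed, and in 11 of 11 cases under erastin, of which 9 also passed. Among genes not called, a further probe set of TPI1 in vehicle, and those of PFKFB2 and LDHB under erastin, had the opposite sign. The remaining ones had the same sign, and the share over all genes was not counted. Probe sets of a gene share the RNA and are not replicates.

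**Figure D4:**
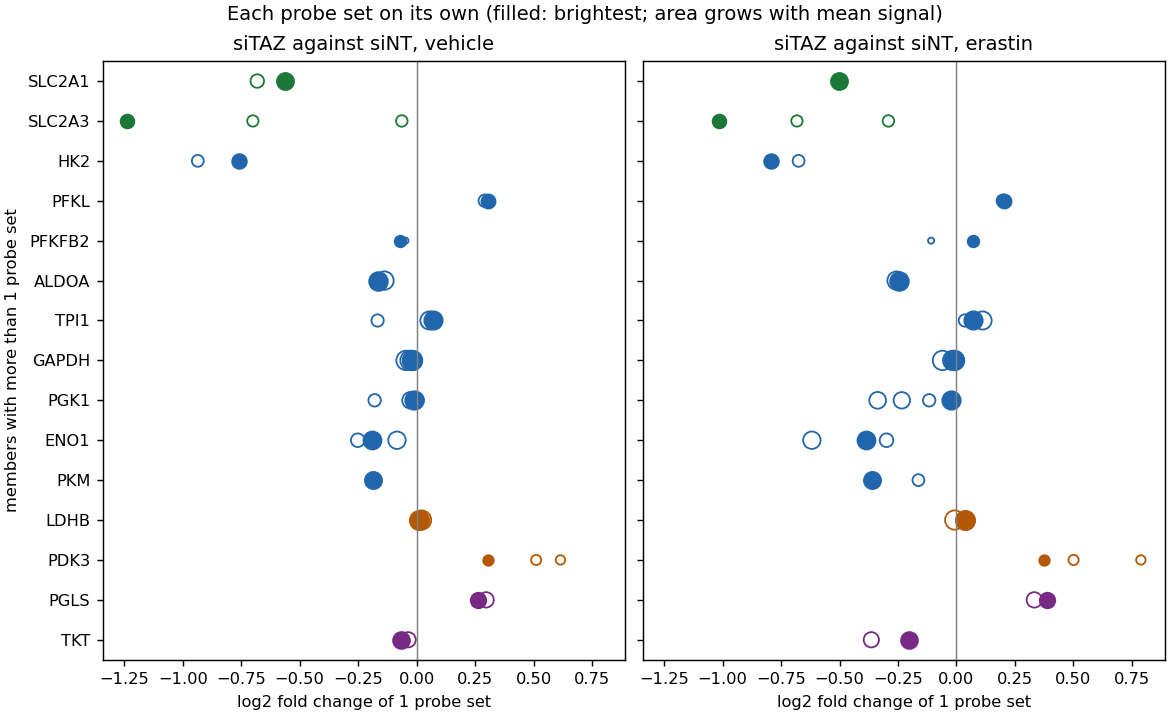
Log2 fold change of siTAZ against siNT for each probe set of the 15 genes with more than 1, in vehicle (left) and under erastin (right). Filled circles are the brightest probe set and open ones the others, with an area that grows with the mean signal; the PFKL probe sets lie close together (0.31 and 0.29 in vehicle), while SLC2A3 spreads from −1.24 to −0.06 in vehicle.

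Erastin alone left the set without a call. In limma, 0 of the 31 genes passed the test in siNT cells and 0 in siTAZ cells, where 0.802% and 0.56% of all genes were called. At an unadjusted p under 0.05 there were 1 in siNT (ALDOC) and 3 in siTAZ (SLC2A3, PGAM1 and PGLS). Of all 11963 genes, 1245 in siNT and 1220 in siTAZ had such a p, so these genes do not set the set apart. The arrays did not overlap between media for 5 genes in siNT (2 higher and 3 lower under erastin) and for 6 in siTAZ (2 higher and 4 lower), beside 14.4% and 20.7% of all genes. The largest change in siNT was that of ALDOC, 0.17 ± 0.07 (adjusted p = 0.415), and in siTAZ that of SLC2A3, 0.30 ± 0.07 (0.142). The 95% intervals of all 31 genes stayed within 0.45 of 0 in siNT and within 0.46 in siTAZ, so larger responses after 7 hours fall outside every interval. The erastin effect averaged over both siRNAs gave 0 calls in the set in limma, where 1.9% of all genes were called. At an unadjusted p under 0.05 there were 3 genes of the set, beside 1502 of all 11963 genes. The interaction of siRNA and erastin also gave 0 calls in the set and over all genes (0%), with the smallest adjusted p of the set at 0.77. In it 2 genes of the set, ALDOC and PKM, had an unadjusted p under 0.05, beside 764 of all 11963 genes.

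**Figure D5:**
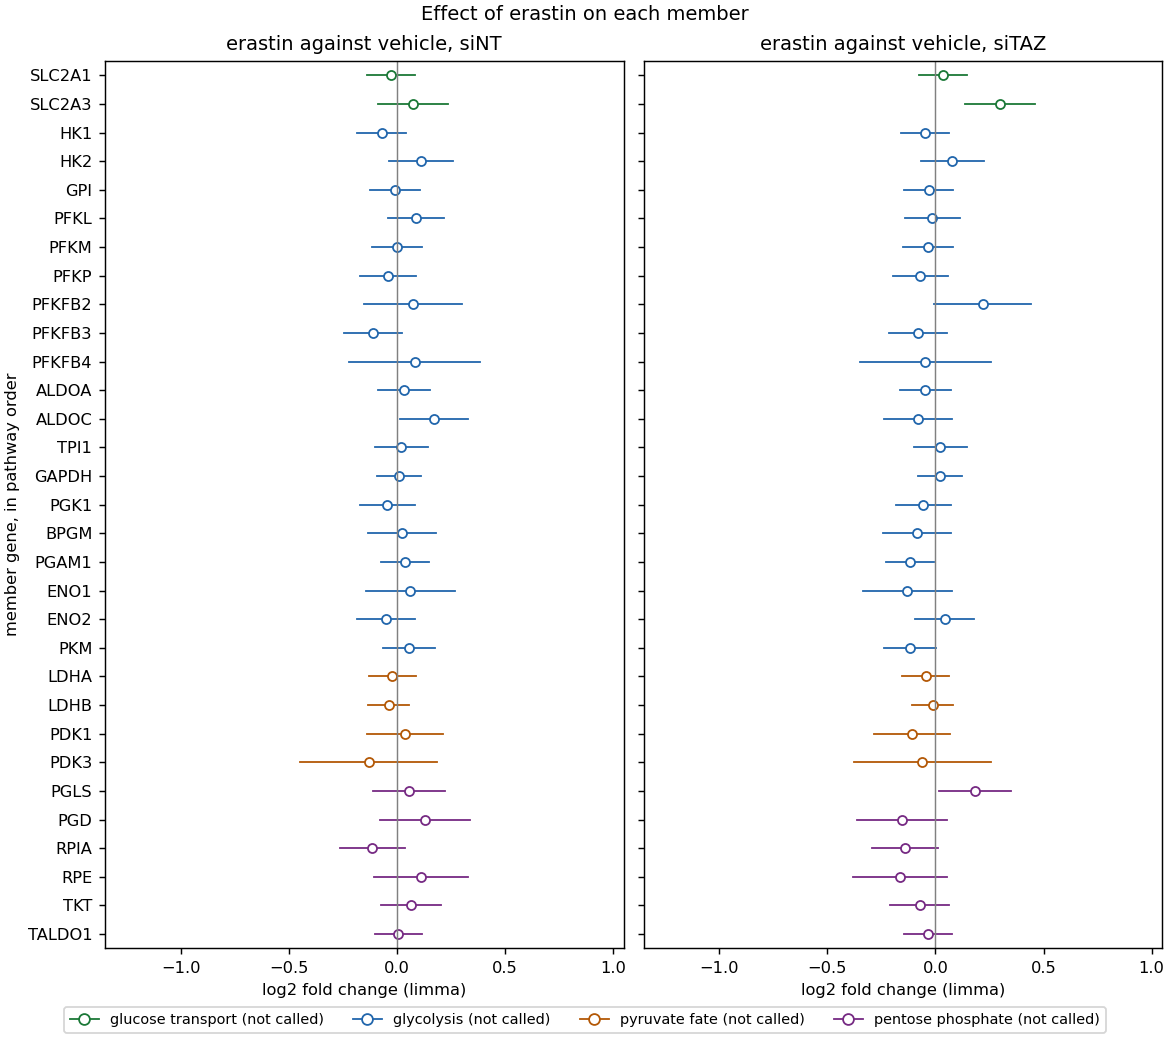
Log2 fold change of erastin against vehicle for each of the 31 genes, in siNT cells (left) and siTAZ cells (right), in pathway order. Lines are 95% confidence intervals of the limma fit and all points are open because none passed the test; the values lie between −0.16 and 0.30.

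The promoters of genes of this pathway are known for the hypoxia response element, whose core is ACGTG or GCGTG, and for the E-box CACGTG, which contains ACGTG. RefSeq windows from 250 bases before to 50 bases after a listed start were searched on both strands (GRCh38.p14, 51 windows of 29 of the genes; SLC2A3 and PFKFB2 were not matched). Stretches of 60 bases are shown for HK2 and RPIA, which fell in both media, for ENO1, which fell under erastin, and for LDHA and PGK1, whose brightest probe sets did not pass within either medium; capitals mark these motifs on either strand. They lie at chr2:74834049-74834108 (HK2, plus strand), chr2:88691586-88691645 (RPIA, plus), chr1:8878729-8878788 (ENO1, minus), chr11:18394460-18394519 (LDHA, plus) and chrX:78104035-78104094 (PGK1, plus), each upstream of the listed start.
HK2: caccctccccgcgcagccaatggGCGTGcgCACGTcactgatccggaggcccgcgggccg
RPIA: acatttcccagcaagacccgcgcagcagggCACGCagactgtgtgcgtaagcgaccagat
ENO1: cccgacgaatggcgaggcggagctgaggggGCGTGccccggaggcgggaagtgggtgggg
LDHA: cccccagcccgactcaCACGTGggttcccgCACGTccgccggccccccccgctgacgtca
PGK1: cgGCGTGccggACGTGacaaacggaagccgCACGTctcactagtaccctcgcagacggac

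ACGTG was found in 39.2% of the 51 windows of the set and in 21.4% of all 35116 windows of the same length. GCGTG was found in 39.2% and 36.5%, CACGTG in 11.8% and 7.26%, and either hypoxia core in 62.7% and 48.4%. By gene, at least 1 window held either hypoxia core in 8 of the 9 genes with a window that fell in vehicle. It did so in 16 of the other 20. The motifs taken singly differed in direction. ACGTG was found in 4 of the 9 and 12 of the 20, GCGTG in 6 and 11, and CACGTG in 3 and 3. Genes with several windows have more chances of a match, and shares by gene over all genes were not counted. A match describes the sequence only, and binding was not measured.

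Neighbouring steps were described from lists of genes around the set, as counts without a test of the list. Of 12 genes for entry of pyruvate into mitochondria, 3 rose and 3 fell in vehicle and 2 rose and 3 fell under erastin. PDP1, the phosphatase that switches pyruvate dehydrogenase on, fell by 0.77 ± 0.08 and 0.62 ± 0.08 (limma adjusted p = 1.58e-05 and 9.01e-05), and DLAT, its acetyltransferase subunit, fell by 0.35 ± 0.08 and 0.53 ± 0.08. The pyruvate carrier subunit MPC1 rose by 0.35 ± 0.05 and 0.38 ± 0.05. Of 21 measured genes among other isozymes and sugar or monocarboxylate transporters, 3 rose and 1 fell in vehicle and 4 rose and 2 fell under erastin. SLC16A4, of the monocarboxylate transporter family, rose by 1.04 ± 0.09 and 0.82 ± 0.09 (2.85e-06 and 1.95e-05), and HKDC1, a hexokinase relative, fell by 0.57 ± 0.09 and 0.74 ± 0.09.

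Among 10 other genes whose enzymes make NADPH, 2 rose and 4 fell in either medium. The mitochondrial folate enzyme gene MTHFD2 fell by 0.90 ± 0.06 in vehicle and by 0.46 ± 0.06 under erastin (limma adjusted p = 7.33e-07 and 0.000148), and it rose with erastin by 0.54 ± 0.06 in siNT and by 0.98 ± 0.06 in siTAZ cells. The malic enzyme genes ME3 (−0.47 ± 0.05 and −0.36 ± 0.05) and ME1 (−0.24 ± 0.07 and −0.39 ± 0.07) fell, and IDH2, the mitochondrial isocitrate dehydrogenase, rose by 0.38 ± 0.05 and 0.26 ± 0.05. MTHFD2 was the member of this list with a called erastin response. Of the 6 pentose phosphate genes 0 were called, and of all genes 0.802% in siNT and 0.56% in siTAZ cells. With shares this low, 0 of 6 genes makes no contrast with MTHFD2, and the difference between these was not tested.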

How the data were processed

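RNA of 12 RCC4 samples was measured on Affymetrix arrays. The authors deposited log2 signals per probe set; the submitters' processing notes name Affymetrix Expression Console and RMA, with versions and genome build not given in the sources used here. From 22277 probe sets, 62 controls, 2108 with no gene listed and 1043 listed for several genes were removed; 19064 remained for 11963 genes, and each gene was read from its brightest probe set by the mean of 12 arrays. RMA compresses changes of dim probe sets. All arrays entered 1 fit with a mean per group in limma 3.58.1 (R 4.3.3; 8 residual and 3.90 prior degrees of freedom), and p-values were adjusted over all genes. The script was tested on simulated data.

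Groups came from the sample titles. Nothing beyond the submitters' word says that replicates were separate cultures; otherwise p-values measure technical spread. Numbers shared by replicates were not used to pair the arrays in the main fit. Across media, correlations of same-numbered deviations ran from −0.42 to −0.01. Between siNT and siTAZ of a medium they ran from −0.05 to 0.36. The highest were those of erastin replicates 2 (0.36) and 3 (0.30), beside −0.13 and 0.15 for the best other number. For vehicle replicate 3 and erastin replicate 1 the other number was higher. Whether the numbers mark pairs was not tested. The text could name all listed genes, WWTR1, and up to 4 genes with the largest called change of each neighbouring list. Renal markers were named besides. The genes, lists and alternatives were chosen with earlier results of these data known. The alternatives were centring, a second quantile normalisation, filters on dim genes, other probe set rules, variance trend, robust variances, array weights, only the compared groups, the replicate block, an actin 3′ minus 5′ covariate, and leaving out each array. Promoter windows are from RefSeq.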

Additional observations from a re-analysis of the deposited data

How the results depend on the processing

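The siTAZ counts kept within 1.5 times of 15 called genes in vehicle and 16 under erastin in every alternative run. In vehicle, leaving out 1 array gave 11 to 15 (3 rose without siNT replicate 2 or siTAZ replicate 3) and the other settings 13 to 17; under erastin these were 14 to 16 (2 rose without siNT replicate 1, siTAZ replicate 1 or siTAZ replicate 3) and 12 to 19. The 12 came from the actin covariate (3 rose and 9 fell) and from fitting only the compared groups (1 rose and 11 fell). With the replicate block, 13 were called in vehicle and 15 under erastin, with 0 in the erastin comparisons and the interaction. Of 31 called effects, 20 kept the call in every run on the chosen probe set or the mean of probe sets. Among these 20, SLC2A3 in vehicle and under erastin and PKM under erastin had a dimmer probe set that did not pass in limma (adjusted p = 0.742, 0.0637 and 0.159). Of 577 recomputed values, 0 reversed. With the actin covariate, PFKL, ALDOA, ENO1, PGLS and TKT lost their calls under erastin and PDK3 gained one, and ENO1 gained one in vehicle; the cause was not tested. The count for erastin in siTAZ cells was 1 (SLC2A3) without genes under the 50th percentile of mean signal, where fewer genes were tested, and 0 elsewhere. Over all genes, calls ranged from 15 to 324 for erastin in siNT cells (96 in the fit reported), from 30 to 166 in siTAZ cells (67) and from 0 to 11 for the interaction. Dim genes such as PFKFB4, PDK1 and PDK3 lie near the signal of markers of other cell types, so their changes may be understated.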

Other observations

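Genes around the pathway that store or divert glucose were also read. Of 9 measured glycogen genes, 3 rose and 1 fell in vehicle and 1 rose and 2 fell under erastin. PGM1, which links glycogen with glucose 6-phosphate, rose by 0.54 ± 0.05 in vehicle and by 0.57 ± 0.05 under erastin (limma adjusted p = 1.2e-05 and 7.68e-06), and the glycogen phosphorylase gene PYGB rose by 0.24 ± 0.06 in vehicle (0.00597). Of 6 measured genes of the hexosamine, polyol and glycerol branches, 2 rose and 2 fell in vehicle and 1 rose and 2 fell under erastin, and the fructokinase gene KHK fell by 0.32 ± 0.07 and 0.23 ± 0.07 (0.00521 and 0.0304). Of 13 measured genes of the tricarboxylic acid cycle, 2 rose and 2 fell in vehicle and 2 rose and 4 fell under erastin, with IDH3B falling by 0.33 ± 0.06 and 0.30 ± 0.06. Among 7 gluconeogenesis genes PCK2, the mitochondrial form of the enzyme that makes phosphoenolpyruvate, was the gene called: it fell with siTAZ by 1.04 ± 0.09 and 0.42 ± 0.09 and rose with erastin by 0.74 ± 0.09 in siNT and 1.36 ± 0.09 in siTAZ cells.

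Of 12 measured regulators of glucose use, 4 rose and 2 fell in vehicle and 2 rose and 5 fell under erastin. EPAS1, which encodes HIF-2α, fell by 1.38 ± 0.08 in both media (limma adjusted p = 1.41e-07 and 1.72e-07), while HIF1A rose by 0.34 ± 0.09 in vehicle (0.0121) and gave 0.21 ± 0.09 under erastin (0.109). PPARGC1A, a coactivator of mitochondrial genes, rose by 0.72 ± 0.08 in both media. TXNIP, whose protein restrains glucose uptake, rose by 0.48 ± 0.05 with erastin in siNT cells (0.00122) and gave 0.15 ± 0.05 in siTAZ cells (0.382); the difference between these effects did not pass the test, as the interaction called 0 genes.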
